A study of Triticum aestivum with 4 samples.

Results

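TaCCA1-7D peaks in the terminal 5 Mb of the wheat chromosomes are described here. They were chosen by position alone: a peak was a member when its summit, the position of highest read coverage in the peak, lay in the first 5 Mb of one of the 21 named chromosomes or within 5 Mb of the end of the last peak of that chromosome. This gave 6535 of the 467343 deposited peaks (1.40%), with 3295 at the 21 start ends and 3240 at the 21 far ends. The peaks come from DNA affinity purification sequencing (DAP-seq), in which sheared genomic DNA is offered to a purified transcription factor on beads and the bound fragments are sequenced. The protein was TaCCA1-7D fused to maltose-binding protein (MBP), and the DNA came from leaves of 2-week-old seedlings of the wheat cultivar Fielder kept in long days, with 2 TaCCA1-7D libraries and 2 input libraries. All values come from 1 deposited list, in which a peak carries no value for a single library. The list therefore gives no error between replicates, and the input libraries entered no comparison. DAP-seq uses purified DNA and a tagged protein, so the peaks describe binding in vitro, without chromatin.

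CIRCADIAN CLOCK-ASSOCIATED 1 (CCA1) is a MYB-like transcription factor of the central clock of plants. It is most abundant around dawn and represses evening-expressed genes through a short AT-rich site known as the evening element. Bread wheat is a hexaploid with the subgenomes A, B and D, and each chromosome has a homoeologous partner in the other subgenomes. The distal parts of wheat chromosomes are known for a higher density of genes and more recombination than the regions around the centromeres, and for the tandem repeats that lie next to the telomeres. The gene annotation and the sequence of the genome build behind the list were not used here, so the peaks are given by position and no gene is named for them.

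Most terminal peaks were under 1 kb wide and of moderate enrichment. Their median width was 477 bp, with quartiles at 316 and 673 bp. The fold enrichment of a peak is the number of sequenced tags over its summit (the pileup) relative to the local background, and its median was 6.38, with quartiles at 5.64 and 7.48 and a highest value of 29.4, all values being above the authors' limit of 5. The pileup behind these values had a median of 12 tags and ranged from 8 to 153, so a single peak rests on few tags. Together the terminal peaks covered 1.62% of the 210 Mb, and the peaks of the next 20 Mb inward covered 1.65% of 840 Mb.

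The outer 5 Mb did not hold a density of peaks that could be told from that of the next 20 Mb. The terminal density was 31.1 ± 4.87 peaks per Mb, against 31.9 ± 3.0 in the next 20 Mb (mean ± SD over 21 chromosomes, both ends of a chromosome pooled). It was higher in the outer 5 Mb on 8 chromosomes and lower on 13 (exact two-sided sign test, p = 0.383, adjusted p = 0.639, Benjamini-Hochberg over the 10 measures compared). Single ends were denser than their own next 20 Mb in 20 of 42 cases. The 21 chromosomes are parts of the same list and no replicates of it, and SDs and tests over them describe the list, not repeat experiments.

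**Figure D1:**
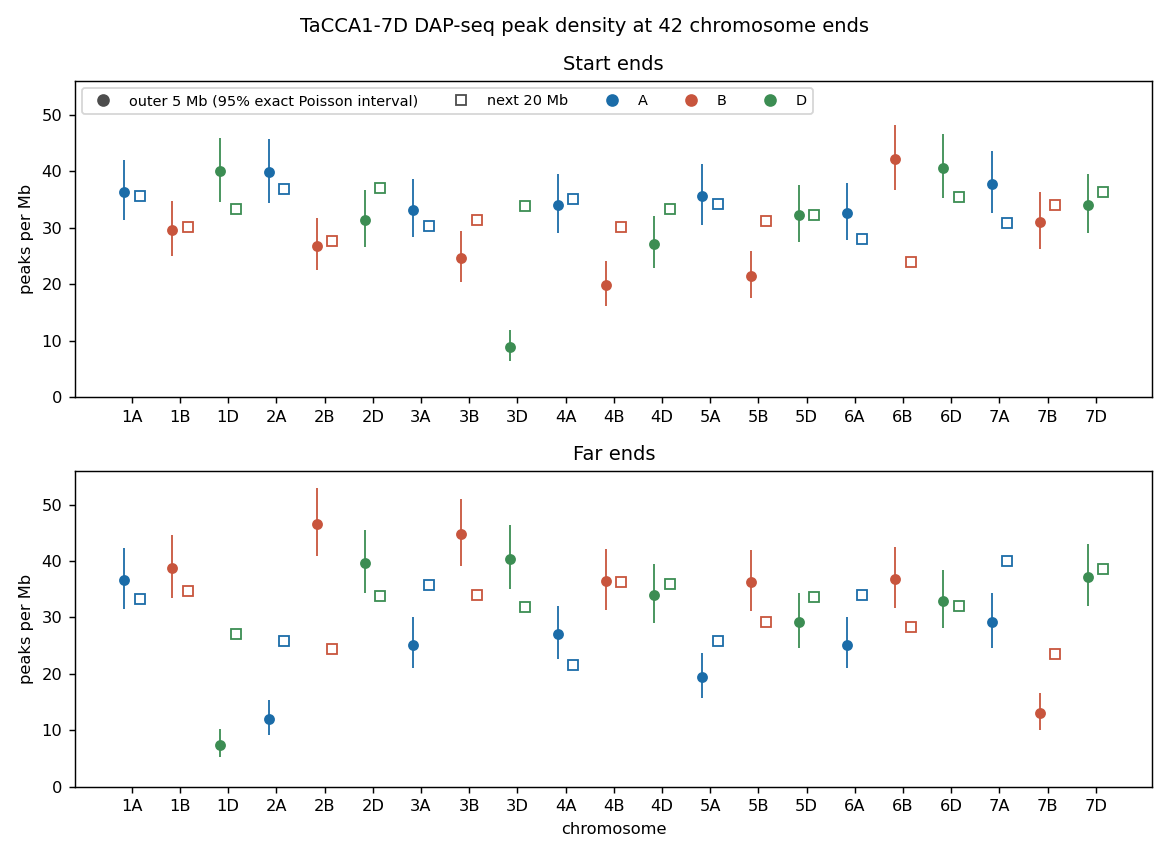
Peaks per Mb (y axis) at the start ends (upper panel) and far ends (lower panel) of the 21 chromosomes (x axis), with filled circles for the outer 5 Mb, bars for their 95% exact Poisson interval (counting error only) and open squares for the next 20 Mb. The far ends of 1D, 2A and 7B and the start end of 3D stand far below the others, at 7.40 to 13 peaks per Mb.

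Over all 42 ends, the outer 5 Mb differed more than stretches of the same length further inward, which rested on 4 sparse ends. Over the 42 ends, the density lay between 7.40 and 46.6 peaks per Mb, with a median of 33.1 and the middle ends between 26.85 and 37.1 (quartiles). The SD over ends was 9.34 peaks per Mb in the outer 5 Mb, 8.74 at 5 to 10 Mb, 7.63 at 10 to 15 Mb, 6.08 at 15 to 20 Mb and 4.37 at 20 to 25 Mb. Over the 42 ends the SD thus fell with each 5 Mb step inward, while the mean stayed between 29.6 and 34.5 peaks per Mb. Without the 4 ends under 15 peaks per Mb named below, the outer densities lay between 19.4 and 46.6. That was narrower than the 5.6 to 44.4 of all 42 ends at 5 to 10 Mb. A general rise in spread towards the ends is therefore not shown. Beyond 25 Mb, the SD over 2584 windows of 5 Mb was 4.23. This order of the SDs was not tested.

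A density under 15 peaks per Mb was found at 4 of the 42 ends, which is 9.52%, against 4 of 168 windows of 5 Mb at 5 to 25 Mb (2.38%) and 0.787% of all 5 Mb windows of the chromosomes. The limit of 15 was chosen after the values were seen. These sparse ends are the far end of 1D with 37 peaks (7.40 per Mb), the start end of 3D with 44 (8.80 per Mb), the far end of 2A with 60 (12 per Mb) and the far end of 7B with 65 (13 per Mb). The 95% exact Poisson interval of the count on 1D was 26.1 to 51.0 peaks and that on 7B was 50.2 to 82.8 peaks, and the next lowest count, 97 peaks at the far end of 5A, lay above both, although its own interval of 78.7 to 118 peaks overlapped that of 7B. Their homoeologous ends were not sparse. The far ends of 1A and 1B held 183 and 194 peaks. The start ends of 3A and 3B held 166 and 123 peaks. The far ends of 2B and 2D held 233 and 198 peaks, and those of 7A and 7D held 146 and 186.

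On 1D and 3D the low density ended within 1 or 2 bins of 1 Mb. At the far end of 1D, each of the outer 10 bins held 2 to 10 peaks, the next bin held 19, and the 14 bins from 11 to 25 Mb held 27 to 43. At the start end of 3D, the outer 4 bins held 6 to 9 peaks, the next 2 held 16 each, and the 19 bins from 6 to 25 Mb held 21 to 48. The far ends of 2A and 7B were uneven further inward as well. On 2A, the outer 5 bins held 3 to 20 peaks, those from 5 to 13 Mb 21 to 40, and the 4 bins from 13 to 17 Mb 10 to 14. On 7B, the outer 2 bins held 20 and 22 peaks, those from 2 to 8 Mb 3 to 16, and those from 11 to 14 Mb 2 to 8.

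Called peaks were few there before the filter as well. Each listed peak carries the number that the caller gave it along the chromosome, so the numbers that are missing between listed peaks count called peaks that did not pass the authors' filter. On the sparse ends 18 peaks per Mb were numbered, against 72.0 on the other 38 ends. Of the numbered peaks, 57.2% were in the list on the sparse ends and 46.2% on the others. On the sparse ends, 44.2% of the listed peaks stood on the lowest local background in the list, 0.621 tags, against 22.0% on the other ends. The part of the background in the low density was not tested, and read coverage outside peaks was not analysed here. Whether the sequence of the Fielder DNA matches the genome build used for alignment at these ends was not tested either. The low density therefore describes the peak list only.

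**Figure D2:**
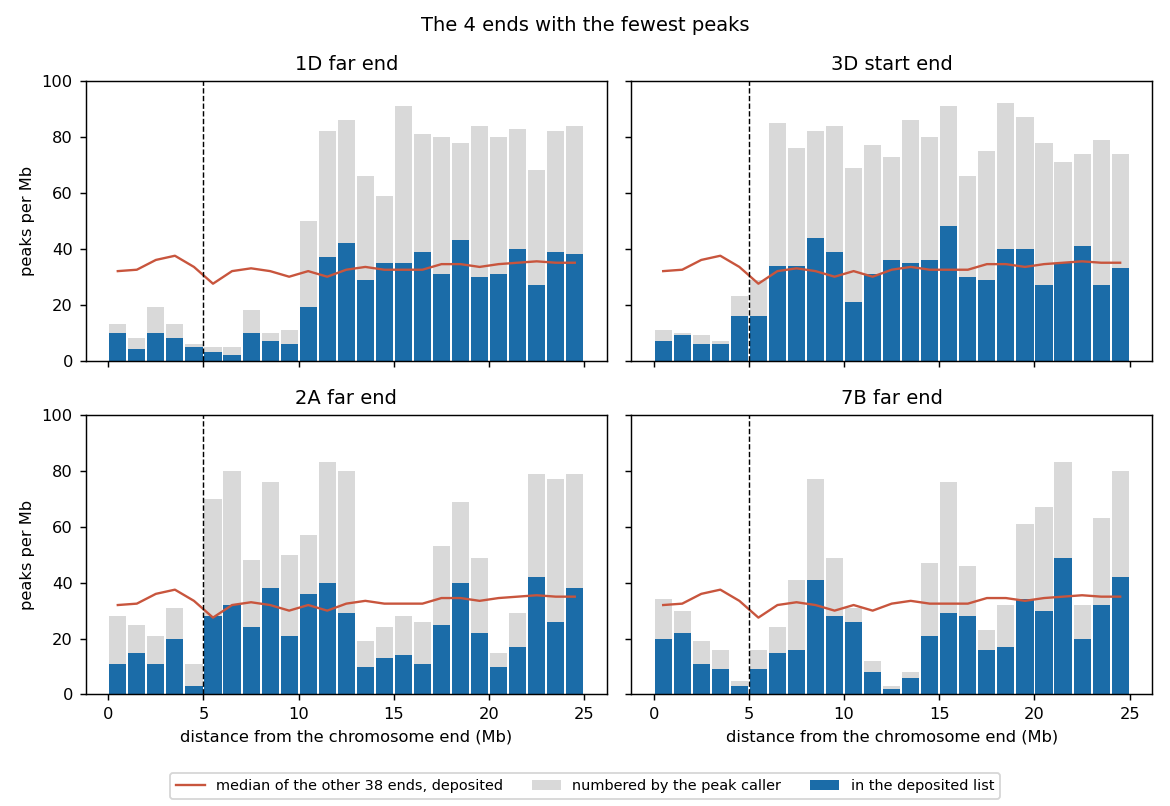
Peaks per Mb (y axis) by distance from the chromosome end (x axis, Mb) at the 4 sparse ends. Blue bars show listed peaks and the red line shows the median of the other 38 ends. Grey bars show peaks that the caller numbered from the first to the last listed peak of a bin. The dashed line marks 5 Mb, and on 1D listed and numbered peaks rise together between 10 and 12 Mb.

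The 3 densest ends were on the B subgenome. The far end of 2B held 233 peaks (46.6 per Mb), that of 3B 224 (44.8 per Mb) and the start end of 6B 211 (42.2 per Mb). In their own next 20 Mb, the densities were 24.4 peaks per Mb on 2B, 33.9 on 3B and 24.0 on 6B. A density above 40 peaks per Mb was found at 5 of the 42 ends (11.9%), against 13 of 168 windows at 5 to 25 Mb (7.74%) and 2.22% of all 5 Mb windows of the chromosomes. The other 2 of these ends were on D, the start end of 6D (40.6 per Mb) and the far end of 3D (40.4 per Mb).

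In steps of 1 Mb, both extremes were more frequent in the outer 5 Mb than along whole chromosomes, and the next 20 Mb lay between. Fewer than 10 peaks were found in 10 of the 210 terminal bins (4.76%), against 25 of 840 (2.98%) in the next 20 Mb and 1.13% of all bins of the chromosomes. All 10 terminal bins lay on the sparse ends. More than 50 peaks were found in 7 terminal bins (3.33%), against 13 (1.55%) in the next 20 Mb and 0.491% of all bins. The highest count of any 1 Mb bin of the chromosomes, 85 peaks, was the outermost Mb of the far end of 3B. The outer 2 bins of the start end of 3A held 56 and 60 peaks, and the next 3 held 13, 14 and 23. These shares were not tested.

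**Figure D3:**
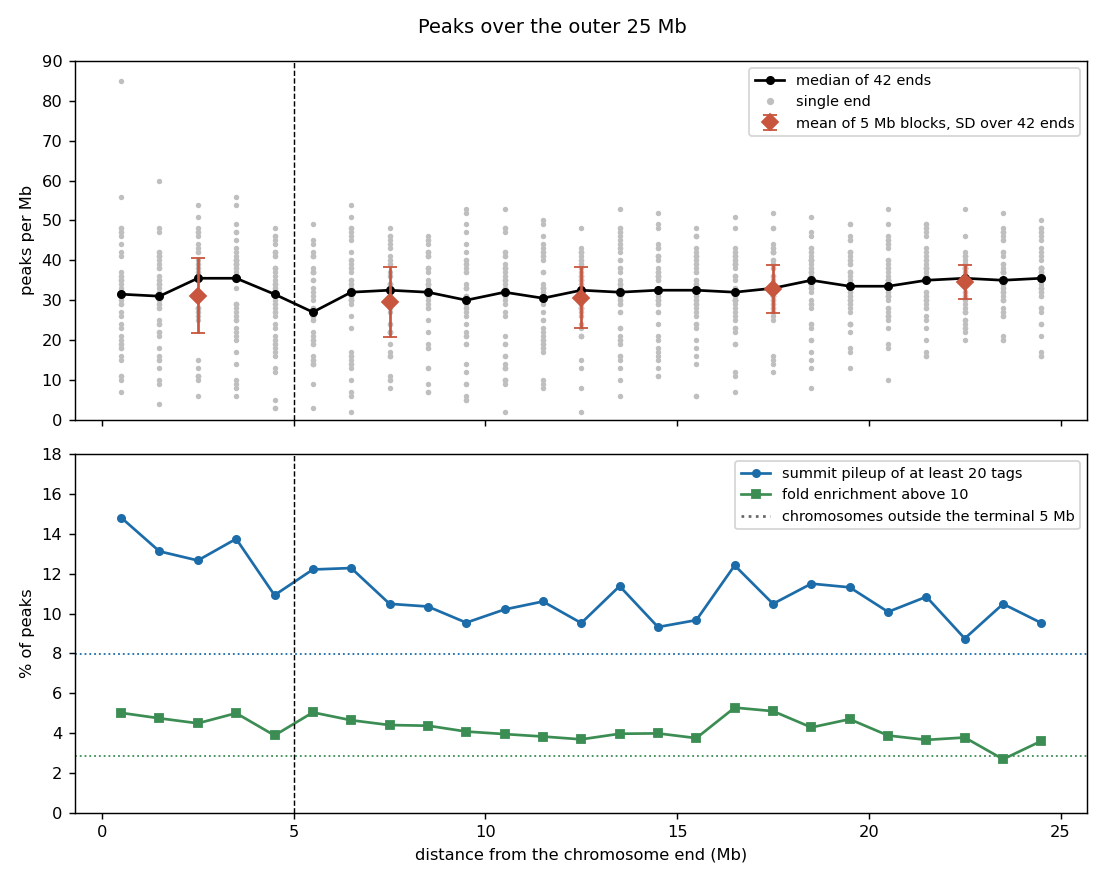
Upper panel, peaks per Mb (y axis) by distance from the end (x axis, Mb), with grey points for single ends, a black line for the median of 42 ends and red diamonds for means of 5 Mb blocks with the SD over ends. Lower panel, the share of peaks whose pileup reached 20 tags (blue) and whose fold enrichment was above 10 (green), with dotted lines at the shares outside the terminal 5 Mb, 7.95% and 2.87%.

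Strong peaks were somewhat more frequent in the outer 5 Mb, but not beyond the spread over chromosomes when set against the next 20 Mb. Of the 6535 terminal peaks, 303 had a fold enrichment above 10, or 4.64% (95% Wilson interval 4.15 to 5.17%), against 1104 of 26805, or 4.12% (3.89 to 4.36%), in the next 20 Mb. Of all peaks on the chromosomes, 2.89% were above 10. By chromosome the share was 4.65 ± 1.43% against 4.15 ± 0.660% (SD, 21 chromosomes) and was higher in the outer 5 Mb on 14 of them (exact two-sided sign test, p = 0.189, adjusted p = 0.473). The pileup reached 20 tags in 13.1 ± 3.58% of the terminal peaks, against 10.6 ± 1.12% in the next 20 Mb and 8.02% of all peaks on the chromosomes. It was more frequent on 16 of 21 chromosomes (exact sign test, p = 0.0266), which did not pass the adjustment (adjusted exact p = 0.207). The median fold enrichment was 6.40 ± 0.169, against 6.30 ± 0.0933, higher on 15 chromosomes, lower on 5 and equal on 1 (exact sign test, p = 0.0414, adjusted p = 0.207). Against the next 5 Mb alone it was higher on 10 chromosomes and lower on 10. Intervals cover counting error only.

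Set against all of the chromosome outside the terminal 5 Mb, the same measures differed on nearly every chromosome. The share above 10 was 4.65 ± 1.43% against 2.86 ± 0.168% and was higher on 20 of 21 chromosomes (adjusted p = 0.000105 from the exact sign test). The share that reached 20 tags was 13.1 ± 3.58% against 7.90 ± 0.572%, higher on 19 of 21 (adjusted p = 0.000553 from the exact sign test). The median fold enrichment was 6.40 ± 0.169 against 6.18 ± 0.0192, higher on 18, lower on 1 and equal on the others (adjusted p = 0.000254 from the exact sign test). Of the numbered peaks, 46.7 ± 2.46% were kept in the outer 5 Mb, against 42.3 ± 0.963% outside it, higher on 20 of 21 (adjusted p = 0.000105 from the exact sign test). The next 20 Mb lay between these values, with 45.0 ± 1.46% kept. The median background was 0.986 ± 0.0503 tags in the outer 5 Mb, against 0.987 ± 0.0156 outside it, and was higher on 9 chromosomes and lower on 9.

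**Figure D4:**
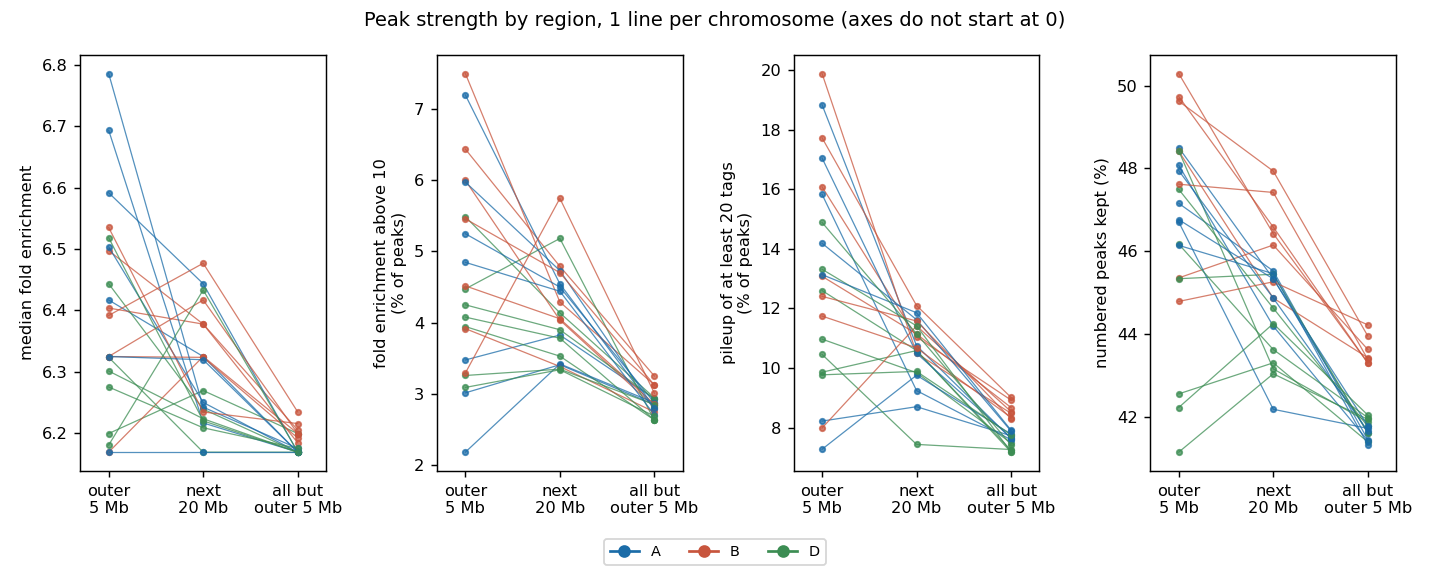
Median fold enrichment, share of peaks with a fold enrichment above 10, share reaching a pileup of 20 tags and share of numbered peaks kept (y axes, which do not start at 0) in the outer 5 Mb, the next 20 Mb and all of the chromosome outside the outer 5 Mb (x axis), with 1 line per chromosome coloured by subgenome. The lines spread widely in the outer 5 Mb and draw together over the whole chromosome, and the third region contains the second.

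Single ends differed widely in strength, and the highest shares rest on few peaks. The share above 10 was highest at the far end of 7B, with 11 of 65 peaks (16.9%), followed by the far ends of 1D with 4 of 37 (10.8%) and 4A with 13 of 135 (9.63%). It was lowest at the start end of 7B, with 1 of 155 (0.645%), the far end of 1A with 2 of 183 (1.09%) and the start end of 4A with 3 of 170 (1.76%). The 2 ends of 7B thus lie at opposite extremes. In number, the far end of 3B held the most such peaks, 18 of 224. The pileup reached 20 tags in 36.9% of the peaks at the far end of 7B, 28.9% at the far end of 4A, 23.7% at the far end of 3B and 21.1% at the start end of 3A. The median fold enrichment was highest at the far end of 4A (6.85), the start end of 3D (6.79) and the start end of 2A (6.70). It was lowest at the far end of 1A (6.13), and several ends shared the next value, 6.17. Pileups are whole numbers and many peaks stood on the lowest background of 0.621 tags, so these medians move in steps. At the start end of 3D, 54.5% of the peaks stood on that background. The share above 10 was higher than in the next 20 Mb at 25 of the 42 ends.

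The terminal peak with the highest fold enrichment, 29.4, is the outermost peak at the start end of chromosome 1A. It spans positions 227113 to 227389, rests on 64 tags over a background of 1.21 tags, and ranks at 8 among all peaks of the named chromosomes. The second, with 28.0 and 69 tags, lies on 2D from 1801810 to 1802151. The next are on 7B from 748291786 to 748292127 (fold enrichment 23.1), on 3B from 3685227 to 3685818 (22.9) and on 2A from 275863 to 276212 (20.9). The peak of 7B belongs to a sparse end. The sixth, with a fold enrichment of 20.3 and 48 tags, begins at position 1 of chromosome 4B and ends at 450, so that it touches the first base of the sequence. The other 4 of the highest 10 lie at the far end of 2B (19.3), the far ends of 3A (18.6) and 3D (17.4) and the start end of 3B (17.2). The 10 peaks were 265 to 592 bp wide, and 6 of the 6535 members were above 20.

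Wide peaks were not the strongest. Among terminal peaks, the median width was 398 bp at a fold enrichment of 5 to 6, 498.5 bp at 6 to 8, 587.5 bp at 8 to 10 and 573 bp above 10, but 450 bp for the 27 peaks above 15. In the next 20 Mb, the medians were 399, 502, 585 and 571 bp, and 422 bp above 15. The widest terminal peak, 2131 bp on 2A from 2268718 to 2270848, had a fold enrichment of 5.82 with 50 tags over a background of 7.76 tags. The others of the widest 5 lay at the far ends of 6D (1859 bp), 2D (1837 bp), 3D (1832 bp) and 7D (1739 bp), with fold enrichments from 5.37 to 6.94.

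Peak width did not differ detectably by region. The median width was 475 ± 24.4 bp in the outer 5 Mb, against 479 ± 10.1 bp in the next 20 Mb (SD, 21 chromosomes), and was larger on 11 and smaller on 10 (exact sign test, p = 1, adjusted p = 1). A width of at least 1 kb was found for 283 terminal peaks, or 4.33% (95% Wilson interval 3.86 to 4.85%), against 3.86% (3.64 to 4.10%) in the next 20 Mb and 3.79% of all peaks on the chromosomes. By chromosome this share was higher in the outer 5 Mb on 12 and lower on 9 (exact sign test, p = 0.664, adjusted p = 0.830). Among single ends, the median width was lowest at the far ends of 1D (327 bp), 3B (385 bp) and 5A (410 bp), and highest at those of 7A (514.5 bp), 2B (514 bp) and 6B (510.5 bp). The far end of 3B was thus both dense and narrow, and that of 1D both sparse and narrow.

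Neighbouring summits lay as far apart in the outer 5 Mb as in the next 20 Mb, within the spread over chromosomes. The median distance was 19316 ± 1962 bp against 19639 ± 969 bp (SD, 21 chromosomes), larger on 10 and smaller on 11 (exact sign test, p = 1, adjusted p = 1). Over all neighbours outside the terminal 5 Mb the median was 20996 bp, longer than the 18838 bp over all terminal neighbours. By chromosome, the terminal median was shorter on all but 5A, 5B, 6A, 7A and 7B, and that difference did not pass the threshold after adjustment. Over all terminal neighbours the quartiles were 9319 and 37174 bp. The median was longest at the far end of 1D (79444 bp), the start end of 3D (67238 bp) and the far end of 2A (49091 bp), and shortest at the far end of 3B (13675 bp), the start end of 6D (16015 bp) and the far end of 2B (16065 bp). The far end of 7B, also sparse, had a median of 19218 bp, and 42 of its 65 peaks lay in the outer 2 Mb. Distances over 100 kb made up 30.7% of those at the 4 sparse ends, 4.15% at the other 38 ends and 4.24% in the next 20 Mb.

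Close pairs were as frequent at the ends as elsewhere. Of 6493 terminal neighbours, 276 lay within 2 kb of each other, or 4.25% (95% Wilson interval 3.79 to 4.77%), against 4.21% (3.98 to 4.46%) in the next 20 Mb and 4.04% of all neighbours on the chromosomes. By chromosome the share was higher in the outer 5 Mb on 9 and lower on 12 (exact sign test, p = 0.664, adjusted p = 0.830). On the sparse ends it was 4.95%, from 10 of 202 neighbours (95% Wilson interval 2.71 to 8.87%). Linked by this distance, the terminal peaks formed 252 pairs and 12 runs of 3, and no run was longer. One run of 3 on 3A from 1474979 to 1477312 held peaks with pileups of 32 to 84 tags and fold enrichments up to 14.7, and another on 3D from 610904294 to 610905873 held a peak of the highest 10. These 2 runs were picked after their values were seen. The longest distance between terminal neighbours, 587 kb, was at the far end of 2A, between summits at 775938269 and 776524891, and 8 called peaks between them did not pass the filter. The next, 546 kb at the start end of 3D, held 0 such peaks.

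**Figure D5:**
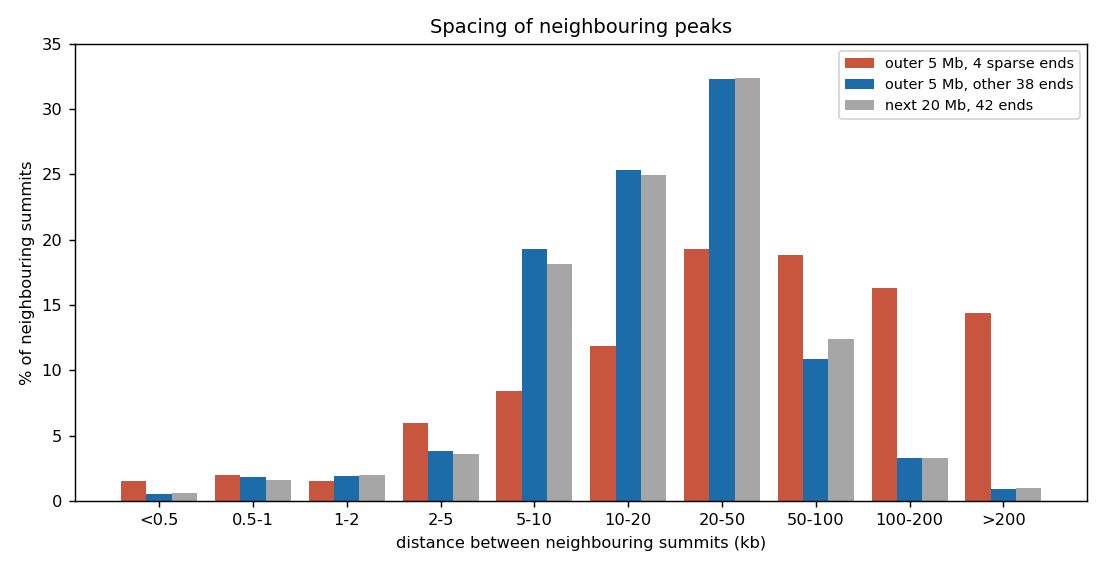
Share of neighbouring summits (y axis, %) by their distance (x axis, classes in kb) at the 4 sparse ends, the other 38 ends and in the next 20 Mb. The other 38 ends and the next 20 Mb lie close in each class, with 32.3% and 32.4% at 20 to 50 kb, while the sparse ends have more distances above 100 kb.

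Start and far ends were not told apart by any of the 10 measures. The density was 31.4 ± 8.01 peaks per Mb at the start ends, against 30.9 ± 10.7 at the far ends of the same chromosomes (SD over 21 chromosomes, exact two-sided sign test, 11 higher and 10 lower, p = 1, adjusted p = 1). The share above 10 was 4.23 ± 2.11% at start ends, against 5.65 ± 3.53% at far ends, higher at the start end on 9 chromosomes (exact sign test, p = 0.664, adjusted p = 1). The median width was 473 ± 26.5 bp against 468 ± 48.1 bp, and the median distance of neighbours 21437 ± 10702 bp against 23670 ± 14725 bp (adjusted p = 1 for both from the exact sign test). The share of numbered peaks kept was lower at the start end on 16 of 21 chromosomes, at 47.1 ± 6.25% against 48.0 ± 4.68% (exact sign test, p = 0.0266), and did not pass the adjustment (adjusted p = 0.266). The windows are not built alike: far ends are counted back from the last peak, so their outermost summit lies 72 to 465 bp from the end, whereas at the start ends it lies 287 to 366709 bp from position 0, with the largest distance on 3D.

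The 3 subgenomes overlapped in terminal density. It was 30.3 ± 3.63 peaks per Mb on A, 32 ± 6.0 on B and 31.1 ± 5.32 on D (SD, 7 chromosomes each), with A above B in 3 of 7 homoeologous groups, A above D in 2 and B above D in 4 (adjusted p = 1 for each pair from the exact sign test, Benjamini-Hochberg over the 3 pairs). The share above 10 was 4.56 ± 1.76% on A, 5.30 ± 1.48% on B and 4.08 ± 0.799% on D, and the median width 475 ± 18.8 bp, 473 ± 35 bp and 476 ± 20 bp, with no pair past the threshold. With 7 groups, the smallest p that this test allows is 0.0156, reached only when all groups agree. One of the 30 comparisons of subgenomes reached it. The share of neighbours within 2 kb was 4.97 ± 0.952% on B, against 3.61 ± 0.780% on D, and was higher on B in 7 of 7 groups (exact two-sided sign test, p = 0.0156, adjusted p = 0.0469 over 3 pairs). The call was lost without the 4 sparse ends (6 of 7, adjusted exact p = 0.375), with the outer 2 Mb or 10 Mb (5 of 7 and adjusted exact p = 0.680 in both) and with peaks at an FDR below 1e-10 (5 of 7, adjusted exact p = 0.688). With the outer 2 Mb, A lay below B in 7 of 7 groups instead (adjusted exact p = 0.0469).

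By homoeologous group, with start ends paired with start ends and far ends with far ends, A and B differed in opposite directions at the opposite ends. At the start ends of A, B and D, group 1 held 182, 148 and 200 peaks, group 2 199, 134 and 157, group 3 166, 123 and 44, and group 4 170, 99 and 136. Group 5 held 178, 107 and 161 there, group 6 163, 211 and 203, and group 7 189, 155 and 170. Start ends thus held more peaks on A than on B in 6 of 7 groups, with group 6 the exception. At the far ends of A, B and D, group 1 held 183, 194 and 37 peaks, group 2 60, 233 and 198, group 3 126, 224 and 202, and group 4 135, 182 and 170. Group 5 held 97, 181 and 146 there, group 6 126, 184 and 165, and group 7 146, 65 and 186. Far ends held fewer peaks on A than on B in 6 of 7 groups, with group 7, where the far end of 7B is sparse, the exception, and fewer on A than on D in 6 of 7. This split by end was seen in the values and was not tested. Chromosome 4A is rearranged in its distal part, so its ends may not be the counterparts of the ends of 4B and 4D that share their name. Whether paired ends match in sequence was not checked.

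The ratio of the terminal density to that of the next 20 Mb was 0.949 ± 0.0902 on A, 1.09 ± 0.279 on B and 0.914 ± 0.120 on D (SD, 7 chromosomes each). B was above D in 5 of 7 groups and above A in 4 of 7 (adjusted p = 1 for each pair from the exact sign test). The wide spread on B came from the far end of 2B with a ratio of 1.91 and the start end of 6B with 1.76, against 0.554 at the far end of 7B. The ratios of 2B and 6B also reflect a low inward density, 24.4 and 24.0 peaks per Mb, against 29.9 over all next 20 Mb of B. For none of the 10 measures did the ratio differ between subgenomes past the threshold, and the smallest adjusted p was 0.328 (exact sign test).

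Peaks on either side of the limit of 5 Mb had similar widths and median fold enrichments, and differed more in spacing and in the share kept. The 629 peaks at 4.5 to 5 Mb from an end had a density of 29.95 per Mb, a median width of 473 bp and a median fold enrichment of 6.37. The 579 peaks at 5 to 5.5 Mb had 27.6 per Mb, 467 bp and 6.48. The median distance of neighbours was 16748 bp inside the limit and 19393 bp outside it. Of the numbered peaks, 50.8% were kept inside and 45.8% outside. The share above 10 was 4.29% inside and 5.18% outside. These differences were not tested.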

How the data were processed

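The labels and the study's methods give the upstream steps. Paired reads were trimmed with Trimmomatic, aligned to the Ensembl 1.0 wheat genome with Bowtie2 2.3.4, kept above a mapping quality of 10 with SAMtools 1.9, freed of duplicates with Picard, and peaks were called with MACS2. The authors kept those with an FDR below 1e-5 and more than 5-fold enrichment. The deposited values are the MACS2 score, the fold enrichment (a ratio), and the −log10 p-value and −log10 q-value of each summit. Which control was used and whether libraries were pooled are not given in the sources used here, nor is the depth per library in the list.

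From the deposited ratio and p-value, the whole-number pileup and the background (pseudocount 1) were worked back. The largest misfit of the −log10 p-value was 5.7e-05, and in a test on 14849 simulated summits 100% of the pileups were recovered. Counts of numbered peaks assume that the caller gave each number once. They run from the first to the last listed peak of a window or bin, so called peaks beyond these are left out. Neighbours were compared within a window. Exact two-sided sign tests were made over 21 chromosomes or 7 homoeologous groups, adjusted over 10 measures or 3 pairs of subgenomes, with a threshold of 0.05. Positions are 1-based. The named items were fixed by rule: the 10 highest and 5 widest terminal peaks, the longest run and distance, the 3 highest and 3 lowest ends of 5 measures, and ends apart from the other 6 of their subgenome. Members, measures and lists were chosen with earlier results of these data known. Python 3.11.15, numpy 2.4.6, pandas 2.3.3, scipy 1.17.1 and matplotlib 3.10.9 were used.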

Additional observations from a re-analysis of the deposited data

Results flagged for a closer look

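Each end was set against the same end of the other 6 chromosomes of its subgenome, for 5 measures (30 groups), and 10 values lay apart from the rest. All 10 belong to the 4 sparse ends, so they are not independent of each other. Chance gives about 1 in 20 groups only where all values of a group have the same spread. Shares above a fold enrichment of 10 rest on few peaks at sparse ends and have a larger counting error there. The rate of 1 in 20 therefore does not hold for that measure. The far end of 1D had a density of 7.40 peaks per Mb (the others 29.2 to 40.4), a median width of 327 bp (454 to 501.5 bp), a median distance between neighbours of 79444 bp (16944 to 21985 bp) and a share above a fold enrichment of 10 of 10.8% (2.69 to 5.45%), which is 4 of 37 peaks. The start end of 3D had 8.80 peaks per Mb (27.2 to 40.6), a median distance of 67238 bp (16015 to 21409 bp) and 9.09% above 10 (2.94 to 4.5%), which is 4 of 44 peaks. The far end of 7B had 13 peaks per Mb (36.2 to 46.6) and 16.9% above 10 (3.26 to 8.04%), which is 11 of 65 peaks. The far end of 2A had a median distance of 49091 bp (16090 to 27980 bp). Over the 4 ends together, 21 of 206 peaks were above 10, or 10.2% (95% Wilson interval 6.76 to 15.1%), against 4.46% on the other 38 ends. Of these 21 peaks, 11 were at the far end of 7B. The far end of 2A, with 2 of 60 peaks (3.33%), lay below the other 38 ends, so a high share is not common to the sparse ends. These ends were picked for their low density after it was seen, so this difference in share was not tested. The outlier marks describe the list only.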

How the results depend on the processing

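Of 285 repeats under another setting, 232 were counted as the same. Between regions, and between start and far ends, this meant the same direction over most chromosomes and the same side of the threshold. Between subgenomes it rested only on the pairs past the threshold, and turned directions were not counted. Without the 4 sparse ends, for example, terminal density was higher on B than on D in 2 of 7 groups, in place of 4. A was above B in 4 of 7, in place of 3. Values below are medians of the differences over chromosomes. Against the next 20 Mb, the density difference of -1.92 peaks per Mb turned to 0.025 among peaks above 10-fold, 0.025 below an FDR of 1e-10, 0.10 at far ends alone and 0.075 without the 4 sparse ends (chosen after seeing the data). Width (1.00 bp) turned to -2 bp against the rest of the chromosome and -2 bp at start ends alone. The distance of neighbours turned to 660.5 bp with a terminal 2 Mb, 543 bp with 10 Mb and 97 bp without group 4 (9 higher, 9 lower). The median fold enrichment difference was 0 against the next 5 Mb, and that of the background 0 with 10 Mb and against the rest. With 2 Mb the share above 10 was -0.114 points and the background -0.053 tags, which was -0.0085 at start ends alone. Close pairs were 0.0507 points with 10 Mb. Peaks of at least 1 kb were -2.04 points among peaks above 10-fold and -0.172 below an FDR of 1e-10. None of these turned values passed the threshold.

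Some differences passed it only elsewhere. The median fold enrichment was 0.154 higher with 10 Mb and 0.157 against the rest of the chromosome, where the share above 10 was 1.66 points higher. The share reaching 20 tags was higher by 1.63 points with 10 Mb, 5.92 with an FDR below 1e-10 and 5.22 against the rest. The kept share was higher by 4.98 points against the rest. With only a subset of peaks, this measure is the share of numbered peaks in that subset, not the share kept by the authors' filter. It was higher by 0.831 points for peaks above 10-fold and by 1.54 for those with an FDR below 1e-10.

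Between start and far ends, the density difference turned from 3 to 0 (9 higher, 10 lower) with 2 Mb, -1.50 with 10 Mb, -0.40 among peaks above 10-fold, -1.40 with an FDR below 1e-10 and -0.20 without sparse ends. Width turned to -9.50 bp with 2 Mb, -11.5 bp with an FDR below 1e-10 and -5 bp without sparse ends, and the distance of neighbours to -1256.5 bp with 2 Mb and -318 bp with 10 Mb. Close pairs turned to 0.203 points with 10 Mb and 0.0260 without sparse ends, the share with 20 tags to 0.25 points with an FDR below 1e-10, and the background to -0.035 tags with 2 Mb, 0 with 10 Mb, -0.022 among peaks above 10-fold and 0 with an FDR below 1e-10. Peaks of at least 1 kb differed by 0 with 2 Mb. None passed the threshold.

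The number of subgenome pairs past the threshold was 0 in place of 1 for close pairs with 10 Mb, with an FDR below 1e-10 and without sparse ends. With 2 Mb it was 1, but the pair was A and B in place of B and D. The number was 1 in place of 0 for the kept share with 2 Mb and without sparse ends. For the share of numbered peaks with an FDR below 1e-10 it was 1 as well. It was also 1 for the ratio of peaks of at least 1 kb with an FDR below 1e-10. The causes were not tested. Leaving out a replicate was not possible. No paired analysis was possible because no peak has a value of its own in each library.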

Other observations

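Densities of homoeologous ends were compared as a description. Over 14 ends, Spearman's rho was -0.45 between A and B (Pearson's r = -0.52), -0.31 between A and D (r = -0.31) and 0.40 between B and D (r = 0.18). Leaving out the pairs that hold a sparse end, rho was -0.42 between A and B over 12 ends, -0.06 between A and D over 11 and 0.68 between B and D over 11. The ends of a pair share the list, its depth and their position, and no test was made. Terminal density and that of the same end's next 20 Mb had a rho of 0.25 over 42 ends, and 0.13 over the 38 that are not sparse.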
